A study of Ovis aries with 27 samples.

Results

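The comparison described here is that of the septum of the fetal heart, the wall of muscle dividing its ventricles, after cortisol or vehicle infusion of the ewe, at 130 d of gestation. It rests on the 12 arrays whose sample titles name the 130 d cortisol and control groups, 12 of the 27 arrays of the series. There were 6 control fetuses, whose mothers received vehicle, and 6 fetuses whose mothers received cortisol at 1 mg/kg/d. Per the labels the infusion ran from about 120 d to 130 d of pregnancy, about 10 d, while the growth label dates the start of infusion to about 115 d. All animals were sheep (Ovis aries), with no genotype or breed named, and each array held the RNA of 1 sample. The other 15 arrays came from 140 d, with 8 control and 7 cortisol fetuses after about 25 d of infusion, and are used only where the ages are set side by side.

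Cortisol is the main glucocorticoid of sheep. It acts through the glucocorticoid receptor, NR3C1, and the mineralocorticoid receptor, NR3C2, which bind DNA as transcription factors, and its access to them is set within cells by the enzymes HSD11B1, which makes cortisol from cortisone, and HSD11B2, which removes it. Glucocorticoids are known for restraining inflammatory gene expression and, before birth, for maturing fetal organs, the heart among them. The comparison asks which septal transcripts differ after a raised maternal cortisol level, and how large a difference these arrays could have missed.

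Levels are log2 intensities relative to the 75th percentile of the same array, so a level of 0 is that percentile and each unit is a doubling of signal. The 75th percentile itself was 1160 ± 101 (SD, n = 6) for control arrays, and for cortisol arrays it was 1093 ± 77.0 (SD, n = 6), and the share of spots well above background was 83.4% ± 1.88 and 82.6% ± 2.98. Neither differed beyond the spread between arrays (2-sided exact permutation tests over all 924 splits of the 12 arrays, without slide as a block, p = 0.227 and 0.569). The arrays lay on 3 slides with 2 control and 2 cortisol arrays on each, so slide was kept as a block in the tests of probes. Within a slide the agents were not evenly placed: 5 of 6 cortisol arrays lay in an outer column and 5 of 6 control arrays in an inner one. On slides 1 and 2 every cortisol array was outer and every control array inner, so only slide 3 separated column from agent. Outer against inner columns, tested beside agent and slide, gave 0 probes (0%) past the adjusted threshold and 504 (4.02%) at an unadjusted p under 0.05. That test depended on slide 3, so it cannot show whether position mattered on slides 1 and 2. Control replicate 2 stood apart from the other 11 arrays on the first principal component (a score of 44.8 against -22.5 to 12.4), which held 18.5% of the variance. Of 20 cardiomyocyte markers looked for, 2 were measured: myoglobin, MB, which stores oxygen in muscle, and the slow myosin heavy chain MYH7, whose probe may also read the closely related MYH6. MB had a level of 8.02 ± 0.17 (SD, n = 6) on control arrays, and on cortisol arrays 8.13 ± 0.18 (SD, n = 6). The labels do not say whether samples came from separate ewes, so p-values measure the spread between these samples.

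No probe passed the test. Of the 12522 probes read well above background on 6 or more of the 12 arrays, 0 (0%) had an adjusted p under 0.05 (limma with slide as a block, Benjamini-Hochberg adjustment), and the smallest adjusted p was 0.368. At an unadjusted p under 0.05 there were 749 probes (5.98%), 483 higher (3.86%) and 266 lower (2.12%) with cortisol, against 626 that evenly spread p-values would give. Higher probes were 64.5% of the 749, and 75.6% under a normexp background correction, 54.8% with the slide column as a covariate, 52.9% without cortisol replicate 4 and 56.9% without control replicate 3. At an unadjusted p under 0.001 there were 27 probes against 12.5. The 6 cortisol arrays all lay above the 6 control arrays for 43 (0.345%) of the 12467 probes with a value on every array, and all below for 9 (0.0722%). Among the 807 genes with a symbol these were 6 and 1.

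**Figure D1:**
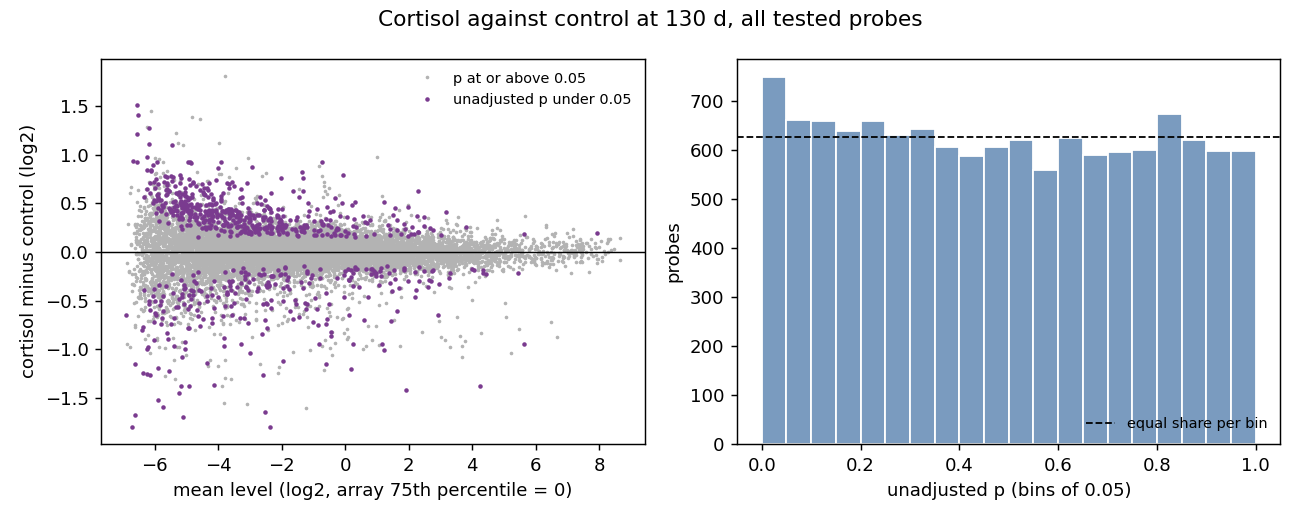
Left, the cortisol minus control difference (log2) of each of the 12522 tested probes against its mean level (log2, 0 being the array's 75th percentile), with probes at an unadjusted p under 0.05 in purple; right, the number of probes in each p-value bin of width 0.05, with a dashed line at an equal share. The first bin holds 749 probes against an equal share of 626, and the spread of differences narrows from dim to bright probes.

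Differences were small for most probes, and most intervals were narrow. The median difference was 0.01 log2 units, 5% of probes lay below -0.34 and 5% above 0.32, and 95.6% differed by less than 0.5 in either direction. A difference over 1 log2 unit was estimated for 66 probes, 15 higher and 51 lower. The 95% interval reached a median of 0.27 to either side of the estimate, a 1.21-fold change. It lay wholly within 1 log2 unit of 0, a 2-fold change either way, for 11565 probes (92.4%), and within 1.5-fold for 9657 (77.1%). Among the 807 named genes these were 695 (86.1%) and 556. For the other 957 probes the interval reached beyond a 2-fold difference on at least 1 side.

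Precision followed brightness. In the dimmest 3131 probes the median interval reached 0.42 to either side and 80.0% of intervals lay within 1 log2 unit, against 0.22 and 97.8% in the brightest 3131. The excess of higher over lower probes also lay at the dim end, with 232 higher and 98 lower at an unadjusted p under 0.05 in the dimmest group and 35 higher and 52 lower in the brightest. The normexp correction moved the median difference of all probes to 0.19, and to 0.57 in the dimmest group and -0.11 in the brightest, so differences of the dim probes named below are given with their value under it where it takes away or turns the sign. Where the sign is kept, that value is not always given. Under normexp 62.0% of intervals lay within 1 log2 unit of 0, against 92.4% without it, so the intervals below hold without that correction.

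Each slide gave its own estimate of the difference from 2 arrays against 2. Across the 12467 probes the estimates correlated at r = 0.03 between slides 1 and 2, 0.21 between slides 1 and 3, and -0.05 between slides 2 and 3. These are descriptions across probes, which share arrays and are not independent. The sign was the same on all 3 slides for 26.5% of probes, close to the share that random signs would give.

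The glucocorticoid receptor and its partners showed no difference past the test. NR3C1 had levels of -3.85, -3.60 and -3.14 (lowest, median and highest) in controls and -3.71, -3.46 and -3.17 with cortisol, and the groups overlapped over most of their range. Its difference was 0.11 (SE 0.12, 95% interval -0.17 to 0.38), so a change of 1 log2 unit lay outside the interval of this fit. NR3C2, which the files list without this symbol, was 2.67, 2.92 and 3.06 in controls and 2.72, 3.16 and 3.43 with cortisol. Its difference was 0.21 (95% interval -0.07 to 0.48), between 0.13 and 0.25 on each slide. HSD11B1 differed by 0.10 (95% interval -0.30 to 0.51). HSD11B2 differed by -0.46 (95% interval -1.11 to 0.19), but only 3 of 6 cortisol arrays read it well above background against 6 of 6 controls, and the value was 0.48 under normexp. Of 9 measured genes of corticosteroid receptors and metabolism, 5 were above and 4 below 0, none passed the test, and their median of 0.05 stood beside 0.01 for all probes. Under normexp that median was 0.33, beside 0.19 for all probes, and by slide it was -0.14, 0.12 and 0.11.

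Genes known to respond to glucocorticoids showed no difference past the test. Of 32 such genes looked for, 8 were measured, and FKBP5, TSC22D3, DUSP1, SGK1, KLF9 and PDK4 were not found by name among the probes. None of the 8 passed the test, 6 of 8 had a lower mean with cortisol, and their median difference was -0.21. Under normexp that median was 0.33, and with 1 array left out it ran from -0.32 (without control replicate 1) to -0.09 (without control replicate 2). TXNIP, an inhibitor of the antioxidant thioredoxin that the files list as VDUP1, was 4.44, 5.09 and 5.56 in controls and 4.40, 4.89 and 5.12 with cortisol, a difference of -0.18 (95% interval -0.64 to 0.27). The clock gene PER1, listed as MPER1, differed by -0.21 (95% interval -0.66 to 0.25), with a positive difference on slide 2 and negative ones on the other slides, and by 0.40 under normexp. NFKBIA, which holds NF-kappa B in the cytoplasm, was 0.65, 1.75 and 2.22 in controls and 0.50, 1.13 and 1.24 with cortisol. Its difference was -0.53 (95% interval -1.14 to 0.08). CDKN1C, an inhibitor of cyclin-dependent kinases, had the smallest p of the list, with a difference of -0.33 (SE 0.14, limma adjusted p = 0.833).

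**Figure D2:**
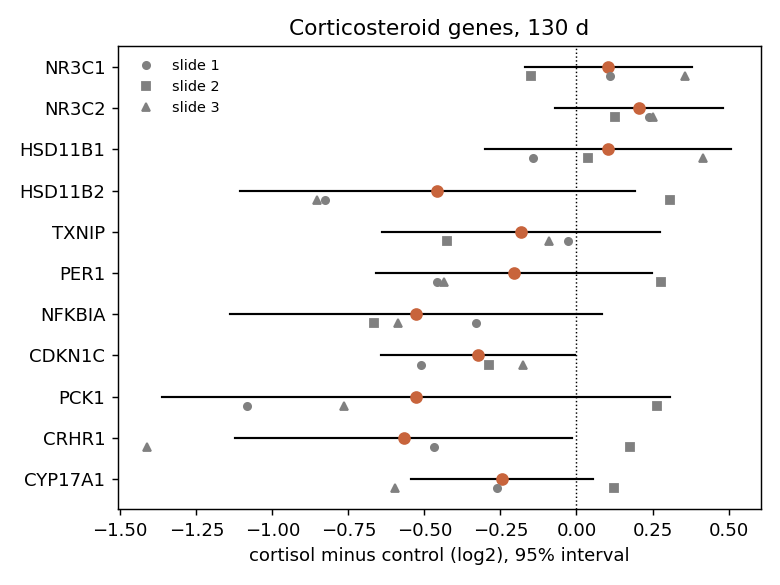
Cortisol minus control difference (log2, orange points) with its 95% interval (lines) for 11 corticosteroid genes, and the difference on each slide (grey symbols). Every interval but those of CDKN1C and CRHR1 includes 0, and no gene passed the test after adjustment.

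Among lists with more than 3 measured genes, the median farthest from 0 was that of interferon-response genes, which had a lower mean with cortisol but did not pass the test. The lists were chosen with earlier results of these data known. This ranking, and the counts for this list and those that follow, are therefore descriptions and not tests. Of 14 measured genes of interferon response and antigen presentation, 11 had a lower mean with cortisol, 3 of them at an unadjusted p under 0.05 (background 2.12% of all probes), and 1 was higher at that p. Among the 807 named genes, 26 were lower and 35 higher at that p. The median difference of the 14 was -0.62, against 0.01 for all probes, and was -0.45 under normexp. By slide the median was -0.35, -0.90 and -0.23. IRF1, a transcription factor that interferon induces, was -3.00, -2.11 and -0.68 in controls and -3.77, -3.17 and -2.80 with cortisol. The cortisol arrays lay close together at the low end, and 2 controls lay within their range. Its difference was -1.26 (SE 0.35, 95% interval -2.04 to -0.49, limma adjusted p = 0.524). RTP4, an interferon-induced receptor chaperone, was 0.60, 1.75 and 2.74 in controls and -0.05, 0.74 and 1.46 with cortisol, a difference of -1.01 (SE 0.27, adjusted p = 0.515 by limma). A further probe of RTP4 gave -0.95. The ubiquitin-like protein ISG15, listed as ISG17, differed by -1.42 (95% interval -2.74 to -0.11), and the chemokine CXCL10 by -1.60 (95% interval -3.44 to 0.24). IFNG, the type II interferon itself, went the other way, with a difference of 0.43 (95% interval 0.13 to 0.73, limma adjusted p = 0.613).

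Control replicate 3 carried much of that shift. Its CXCL10 level was 3.39 the highest of the 12, as was its ISG15 level of 5.40. Without that array, 11 of the 14 genes had a lower mean with cortisol, 3 of them at an unadjusted p under 0.05 (background 3.07% of all probes), but the median difference was -0.27 in place of -0.62. Without control replicate 4 it was -0.87. In the same array the immune marker FCER1G stood at 0.36, with the other controls from -1.58 to -0.87.

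Inflammatory cytokine and adhesion genes leaned the same way, with 13 of 19 lower and 6 higher, and a median difference of -0.16, which was 0.40 under normexp. Of the 19, 7 were lower at an unadjusted p under 0.05, against 2.12% of all probes, and none was higher at that p. PTGS1, a cyclooxygenase that starts prostaglandin synthesis, had the smallest p: it was -0.10, 0.18 and 0.49 in controls and -0.73, -0.19 and -0.08 with cortisol, with only a slight overlap of the groups. Its difference was -0.47 (SE 0.12, limma adjusted p = 0.515) and -0.45 under normexp. ICAM1, which lets leukocytes adhere to endothelium, was -4.25, -3.63 and -1.73 in controls and -4.55, -4.36 and -3.97 with cortisol, a difference of -0.97 (95% interval -1.77 to -0.16). Of the controls, 3 lay within the cortisol range and the others above it. ALOX5AP, needed for leukotriene synthesis and listed as FLAP, differed by -0.69, and by -0.42 without control replicate 3. On slide 2 alone its difference was -1.69, and on slide 3 alone it was 0.07. The RNA sensor TLR7, the neutrophil chemokine CXCL8 and the anti-inflammatory cytokine IL10 differed by -0.68, -0.56 and -0.79, and by 0.40, 0.07 and 0.28 under normexp. With the slide column as a covariate the difference was -1.68 for ICAM1 and -1.88 for IRF1, both farther from 0. Only slide 3 separated column from agent, so these values depend on its arrays. Without control replicate 3 the list's median was -0.02, with 4 genes lower at an unadjusted p under 0.05 (background 3.07%), and without control replicate 2 it was -0.34.

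Markers of white blood cells also had lower means with cortisol, with none past the test. Of 17 immune markers, 8 were measured, and all 8 had a lower mean with cortisol, with a median of -0.38, which was 0.02 under normexp. By slide it was -0.29, -0.88 and 0.04, so slide 3 showed none of it. It was -0.28 without control replicate 3 and -0.21 without cortisol replicate 3. At an unadjusted p under 0.05 in limma, 0 of the 8 were lower without control replicate 3 (background 3.07% of all probes). With that array it was 1 of 8 (background 2.12%). The summed level of the 8, in units of the array's 75th percentile, ran from 2.13 to 4.09 in controls and from 2.08 to 2.62 with cortisol. PTPRC, CD68 and CSF1R, which define leukocytes and some of their classes, were not found by name among the probes. ITGB2, the leukocyte integrin chain that binds ICAM1, was -2.19, -1.45 and -0.45 in controls and -2.45, -2.11 and -1.48 with cortisol, a difference of -0.61 (95% interval -1.18 to -0.03, limma adjusted p = 0.83). The 3 cathelicidins measured, antimicrobial peptides of neutrophil granules, spread widely: CATHL1B was -1.14, 0.91 and 1.66 in controls and -1.89, -0.42 and 1.22 with cortisol. Their median difference was -0.67, from -1.64 on slide 1 to 0.44 on slide 3, and with 1 array left out it ran from -1.16 (without control replicate 6) to -0.29 (without control replicate 2). In RNA of whole tissue, fewer cells of a type and less RNA per cell cannot be told apart, and the part of white blood cells in the interferon and inflammatory differences was not tested.

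**Figure D3:**
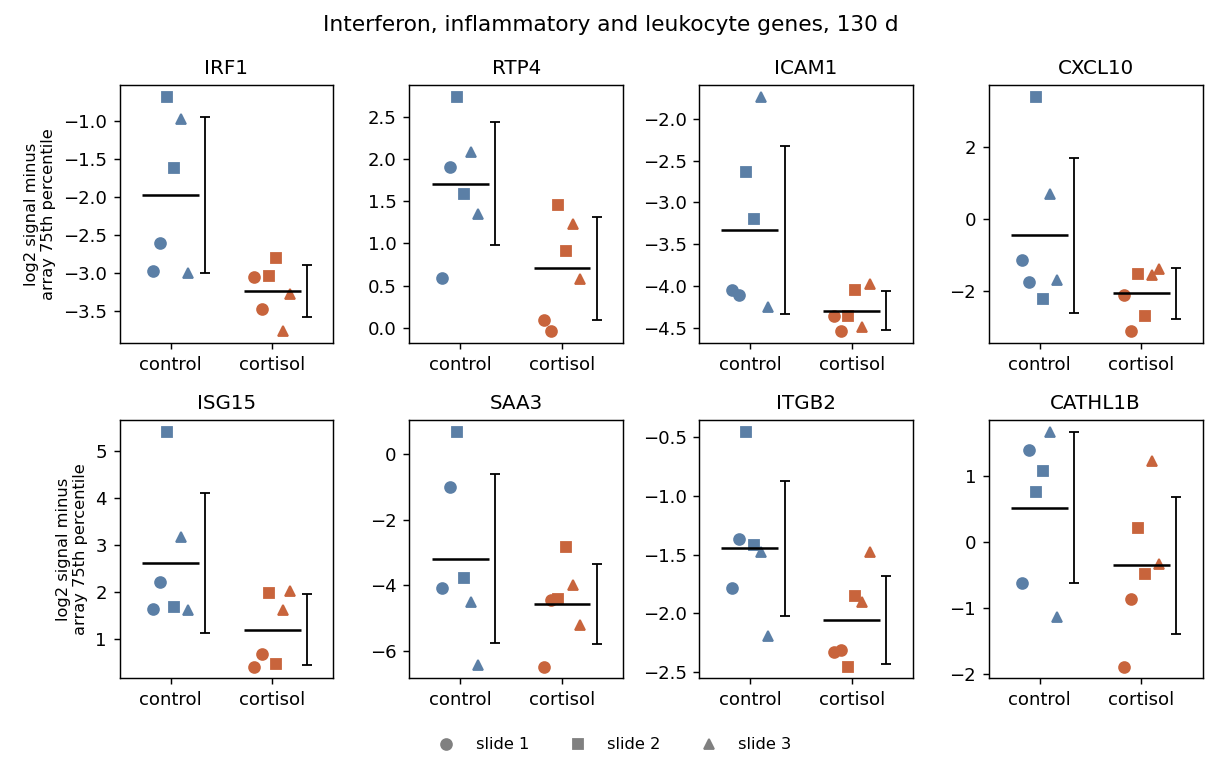
Level on each array (log2, 0 being the array's 75th percentile) of 8 interferon, inflammatory and leukocyte genes in controls (blue) and cortisol fetuses (orange), with symbols for slides, a line at the mean and a bar for 1 SD. Controls spread more widely than cortisol arrays for IRF1, ICAM1, CXCL10 and ISG15, and the groups overlap for every gene shown.

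Cell cycle genes turned on a single control. Of 14 measured, 7 were higher and 7 lower, with a median difference of -0.01. Control replicate 2 was far below all other arrays for the mitotic genes: CCNA2, the cyclin of DNA synthesis, was at -5.04 there, from -1.59 to -0.84 in the other controls and from -2.86 to -1.32 with cortisol. CDK1, the kinase that drives mitosis, was at -4.74 in that array, and ASPM, a spindle protein, at -7.11. Without it, 11 of 14 were lower with cortisol and the median was -0.23. CCNA2 then differed by -0.62 (SE 0.21, 95% interval -1.09 to -0.15, limma adjusted p = 0.544), CCNB1 by -0.64 and CDK1 by -0.57, and 6 of the 14 reached an unadjusted p under 0.05, against 7.34% of all probes in that fit, with none past the adjusted threshold. These mitotic genes were singled out after their values were seen. CCND3, a cyclin of the first gap phase, did not depend on that array, with a difference of -0.27 with it and -0.28 without it, though it was 0.00 under normexp.

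**Figure D4:**
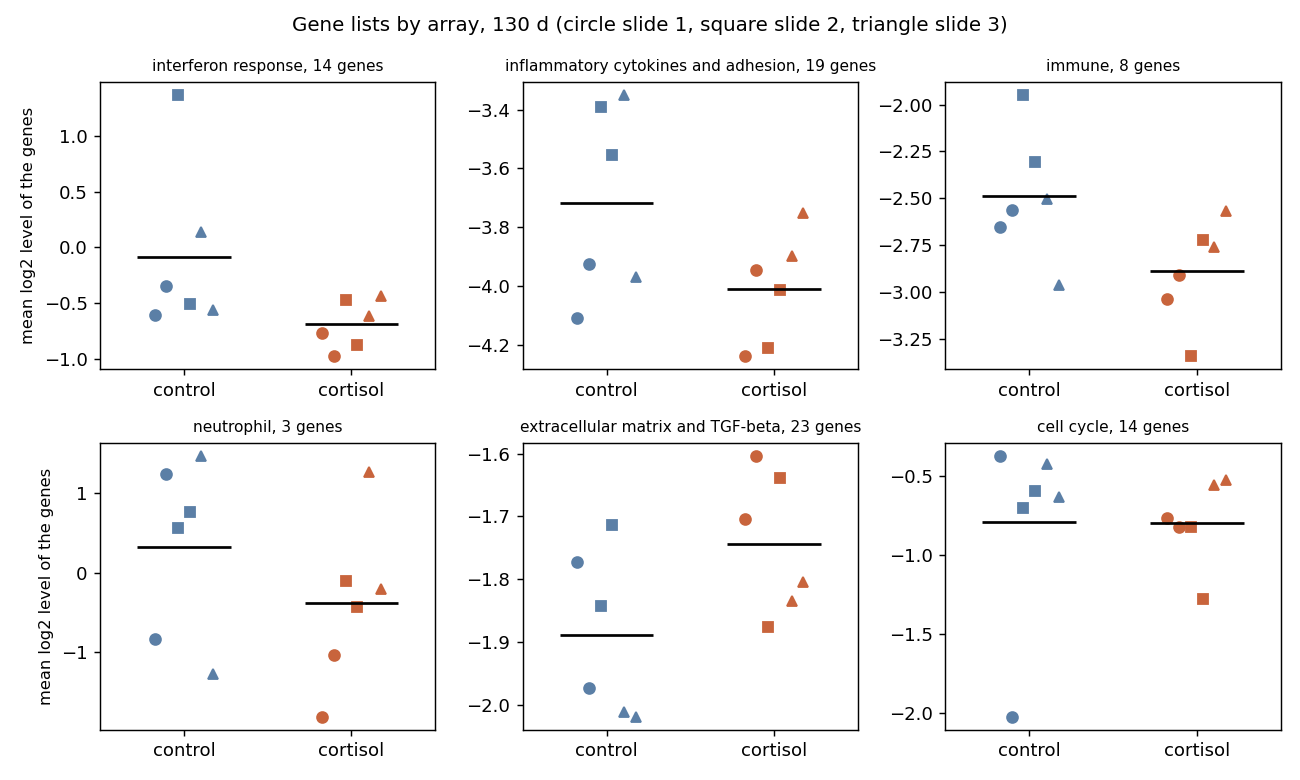
Mean log2 level of the measured genes of 6 lists on each array, controls in blue and cortisol in orange, with symbols for slides and a line at the group mean. Control replicate 3 lies highest for interferon response and control replicate 2 lowest, at -2.03, for cell cycle.

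Higher genes were mostly dim. MLN, the gut hormone motilin, had the smallest p of any named gene: it was -5.90, -5.25 and -4.97 in controls and -4.59, -4.38 and -4.21 with cortisol, and the groups did not overlap. Its difference was 0.92 (SE 0.14, 95% interval 0.61 to 1.22, limma adjusted p = 0.368), while a further probe of MLN gave -0.12. The angiotensin receptor AGTR1 differed by 0.08 (95% interval -0.18 to 0.34) and AGTR2 by -0.17 (95% interval -0.89 to 0.55), or 0.19 under normexp.

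Other genes with a small p were of mixed kinds. The chloride channel CLCN2 differed by 0.74 (95% interval 0.41 to 1.06), and by 0.46 at a further probe. The potassium channel KCNK3 differed by 0.38 (95% interval 0.18 to 0.57), from 0.30 to 0.43 on each slide. Of the 6 measured genes of ion pumps, channels and calcium handling, 2 were higher and 4 lower, with a median of -0.02 and none past the test. NOG, which binds and blocks bone morphogenetic proteins, differed by 0.71, and by -0.43 at a further probe. SFTPD, a surfactant protein listed as SP-D, differed by 0.48 with 1 cortisol array left out for an outlying spot, and by -0.04 with that spot kept. TGFBR2, a TGF-beta receptor, differed by 0.32 (95% interval 0.09 to 0.55, limma adjusted p = 0.618), and 16 of 23 measured genes of extracellular matrix and TGF-beta were higher, with a median of 0.13, 0.35 under normexp and 0.06 without control replicate 2.

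**Figure D5:**
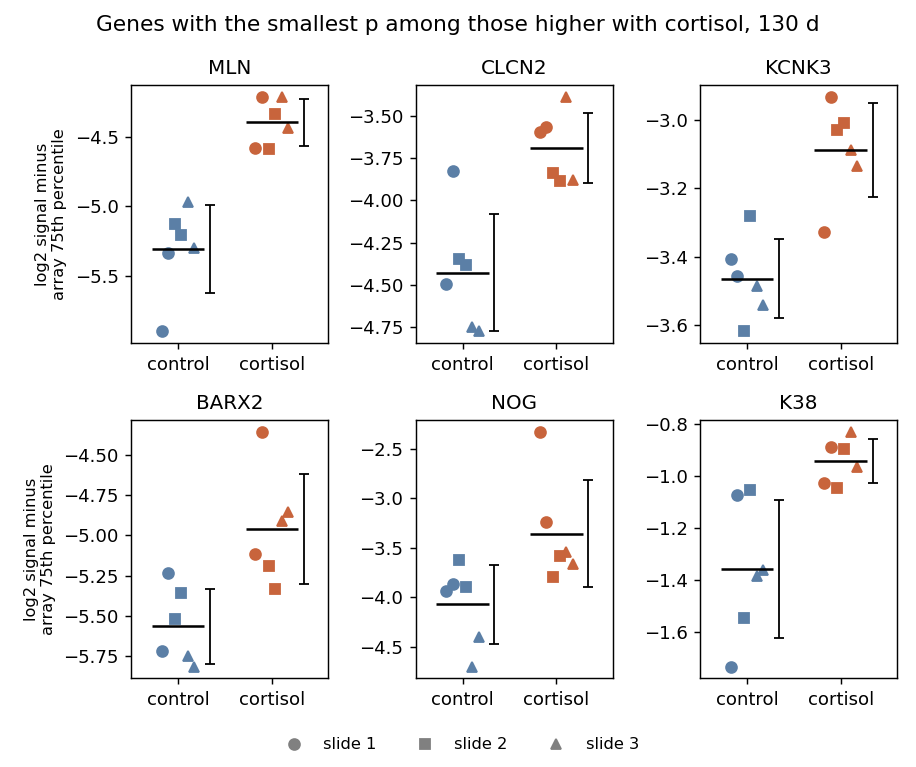
Level on each array (log2, 0 being the array's 75th percentile) of 6 of the genes with the smallest p among those higher with cortisol, controls in blue and cortisol in orange, with symbols for slides, a line at the mean and a bar for 1 SD. MLN and K38 show no overlap between groups; CLCN2, KCNK3, BARX2 and NOG show some.

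Some of the largest estimates had intervals that included 0. ALB, serum albumin, was at -0.24 in 1 cortisol array and between -6.07 and -5.03 in the others, for a difference of 1.22 (95% interval -0.61 to 3.05). UCP1, the uncoupling protein of brown fat, was read well above background on 3 arrays of each group, with a difference of 1.29 (95% interval -1.02 to 3.60, 1 value missing). The acute-phase protein SAA3 differed by -1.38 (95% interval -3.48 to 0.73). PRP2 differed by 1.41 (95% interval 0.70 to 2.13; limma adjusted p = 0.457) and was well above background on 2 of 6 control and 5 of 6 cortisol arrays.

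The measured genes of energy metabolism and heart muscle were mostly close to 0 with narrow intervals, but many of those looked for were not measured. All 7 measured genes of oxidative phosphorylation, of 32 looked for, had intervals within 1 log2 unit, with a median of 0.01. Their differences ran from -0.20 for ATP5MC1 to 0.35 for COX5A. ATP5MC2, a subunit of the membrane rotor of ATP synthase, differed by 0.01 (95% interval -0.17 to 0.19), and SLC25A4, the adenine nucleotide carrier of heart, by -0.03 (95% interval -0.40 to 0.34). The same held for all 13 genes of glycolysis and glucose transport (median -0.02), all 12 of the insulin-like growth factor axis (-0.01) and all 23 ribosomal proteins (0.02). Of 20 sarcomere genes looked for, 2 were measured. TPM1, a thin-filament protein, differed by 0.09 (95% interval -0.08 to 0.26, 1 value missing) and MYH7 by 0.08 (95% interval -0.19 to 0.35). The gap junction protein GJA1 differed by 0.05 (95% interval -0.15 to 0.26).

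Most tested probes are expressed sequence tags without a symbol, and some of the largest differences lay there. The first 30 bases of the 60-base probes follow, 5′ to 3′ as the scanner files give them, for the 2 unnamed probes of each direction with the smallest p, so that they can be matched to a genome; no base is in capitals because no motif is marked.
A_70_P002276: ctcttcctctaaccaactgagtactcttgg
A_70_P054956: cttaccaaataaagtcaataccaaagggtc
A_70_P064106: aaacaggactcatctgatgatgtgagaaag
A_70_P037196: atttatgctgtgcactgctgactatgcagt
The first and second were higher with cortisol by 0.69 and 0.64 with no overlap of the groups. A_70_P037196 was -4.65, -4.18 and -3.93 in controls and -6.55, -6.13 and -4.43 with cortisol, a difference of -1.70 (SE 0.31, limma adjusted p = 0.368). Cortisol replicate 4, at -4.43, lay within the control range; without it the difference was -2.01 (SE 0.15, limma adjusted p = 0.00271), the only probe to pass the test in any fit with 1 array left out. It was well above background on 4 of 6 cortisol arrays, and with all 12 arrays its difference was 0.01 under normexp. A_70_P064106 differed by -1.59 (SE 0.28, limma adjusted p = 0.368) and by 0.22 under normexp, and was well above background on 2 of 6 cortisol arrays.

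At 140 d, after about 25 d of infusion, the same genes often had the opposite sign, though no difference between the ages passed the test. Across the 12522 probes the cortisol differences at the ages correlated at r = -0.18. For this correlation and for the shares of signs, the 140 d values were plain differences of group means, without slide as a block. The ages share no arrays, but share slides. Of the 749 probes at an unadjusted p under 0.05 at 130 d, 234 had the same sign at 140 d (31.2%, against 47.8% of all probes). With slide as a block, IRF1 was 0.88 higher with cortisol at 140 d, RTP4 0.73 and ICAM1 0.71. MLN differed by -0.62 there. Cortisol against control at 140 d gave 0 probes past the adjusted threshold, with a smallest adjusted p of 0.676 by limma. IRF1, RTP4 and MLN were among the genes named for a small p of the difference between ages, so they do not stand for genes in general. The difference between the ages was 2.14 for IRF1 (limma adjusted p = 0.215). For that difference 0 probes (0%) passed the adjusted threshold, 933 (7.45%) had an unadjusted p under 0.05, and 0.142 was the smallest adjusted p. The ages were also separate cohorts with infusions of unequal length, and these cannot be told apart.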

How the data were processed

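Per the file headers, the deposited scanner files give the 1-colour intensity of each spot after background subtraction and spatial detrending, with no scaling across arrays, and other values that are quality flags. The submitters' processing notes name Agilent Feature Extraction 10.1.1.1. The authors' deposited value table holds log2 values, which were log2 processed intensity minus 1 constant per array; what that constant rests on is not given in the sources used here. From the scanner files, log2 of the processed intensity was taken relative to the 75th percentile of all spots on that array other than control spots. Spots with an outlier flag were dropped, and repeated spots were averaged. The 12522 of 15008 probes well above background on at least 6 of 12 arrays were tested with limma 3.58.1 (lmFit, eBayes; R 4.3.3) with agent and slide as terms. The threshold was a Benjamini-Hochberg adjusted p of 0.05. The number of arrays, 6 a group, limits the precision. The difference between ages came from all 27 arrays in 4 groups with slide as a block. The scripts were tested on simulated data.

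Symbols came from the files' names, identifiers and the RefSeq table of sheep genes, and some older names were read by hand, giving 1242 tested probes (9.92%) for 807 genes, each represented by its brightest probe. Named genes were those with the smallest p per direction (12 each), the largest differences, the smallest p within each of 28 gene lists, and a fixed set of corticosteroid genes; some genes that the rule names are not reported here. Members and lists were chosen with earlier results of these data known. Alternatives covered the block, the slide column, background correction, normalization, filter, outlying spots, array weights and each array left out; giving list members without control replicates 2 and 3 was chosen after seeing the data.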

Additional observations from a re-analysis of the deposited data

Results flagged for a closer look

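In 162 groups of 6 arrays, over 53 genes, the array measures and the gene lists, 12 had an array apart from its group by more than Dixon's 95% critical value; chance flags about 1 in 20 groups. Control replicate 2 accounted for 5 of them, all in means of list genes: it was low for cell cycle (-2.03, others -0.70 to -0.38) and apoptosis (-2.49, others -2.30 to -2.19), and high for fatty acid oxidation (0.87, others -0.11 to 0.26), ion pumps, channels and calcium handling (0.31, others -0.06 to 0.06) and corticosteroid receptors and metabolism (-1.39, others -2.07 to -1.86). Cortisol replicate 6 was low in the mean of oxidative phosphorylation genes (3.52, others 3.67 to 3.73) and in NFKBIA (0.50, others 0.97 to 1.24).

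Single genes with an array apart were AGTR1 in control replicate 5 (1.44, others 0.83 to 1.02), FCER1G in control replicate 3 (0.36), TRAIN A in control replicate 1 (-5.10, others -4.61 to -4.46), ALB in cortisol replicate 4 (-0.24) and PRP2 in cortisol replicate 1 (-6.69, others -5.81 to -5.42).

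For 3 of 51 genes every cortisol array lay below the control mean at 130 d and above it at 140 d: IRF1, ICAM1 and ALOX5AP. The set was not an independent screen. IRF1 and ALOX5AP were in it for a small p of the difference between ages, and IRF1 and ICAM1 for a small p at 130 d. The cortisol difference at 140 d minus that at 130 d was 2.14 for IRF1, 1.68 for ICAM1 and 1.29 for ALOX5AP, with limma adjusted p of 0.215, 0.287 and 0.287.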

How the results depend on the processing

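No probe passed the test under any of the 14 alternative fits that kept all 12 arrays (smallest adjusted p 0.0501, under quantile normalization); with each array left out the count ran from 0 to 1. Probes at an unadjusted p under 0.05 numbered 749, 574 to 919 with each array left out, 160 under normexp and 436 with all 27 arrays and no slide block. Probes whose groups do not overlap numbered 52, 105 under normexp, 31 under a median shift and 34 in the deposited value table. Normexp lowered the share of intervals within 1 log2 unit from 92.4% to 62.0% and turned the sign of ACVR1B (0.52), CRHR1 (0.42), CXCL8 (0.074), FAS (0.084), IL10 (0.28), IRAK4 (0.21) and TLR7 (0.40); keeping outlying spots turned SFTPD (-0.044). The cause was not tested. Of 117 genes followed, 33 had an interval excluding 0, and of their 885 values under alternatives these 8 were the ones with the other sign; of the 84 with an interval including 0, 44 changed sign under some alternative. With the replicate number as a block in place of slide, 866 probes reached an unadjusted p under 0.05 and 0 passed the test; same-numbered arrays lay side by side on a slide, and their deviations from the group means correlated at r from -0.04 to 0.25, over 0.1 for 3 of 6 pairs, so the numbers were not taken to pair the samples. With slide column as a covariate, 827 probes reached that p. Dim probes limit the reach: their intervals are the widest and their sign depends most on background correction.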
